A study of Mus musculus with 13 samples.

Results

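The genes described here make neurotransmitters or load them into synaptic vesicles. There are 9 of them: Gad1, Gad2 and Slc32a1 for GABA, Slc17a6, Slc17a7 and Slc17a8 for glutamate, and Th, Chat and Tph2 for catecholamines, acetylcholine and serotonin. They were chosen by name, and every deposited peak that the authors' annotation assigned to them was taken, which gave 280 of 533196 peaks in 8 lists. A promoter peak is one whose row gives a distance of at most 2 kb to the named transcript's start, and 62 of the 280 were. The other 218 were distal.

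Chromatin immunoprecipitation with sequencing (ChIP-seq) recovers the DNA bound by a protein or carrying a histone mark and lists the enriched stretches as peaks. It was done on basal cells of the adult mouse olfactory epithelium (C57BL6, wild type), which had been isolated by their c-KIT surface receptor and grown as attached lines in medium with EGF, FGF2, BMP4 and SB431542. All 8 libraries came from such lines, with no treated or mutant group, and the series asked which genes Polycomb repressive complex 1 (PRC1) occupies in these neuron precursors. RING1B and CBX8 are PRC1 subunits, and H3K27me3 and H3K27ac are a repressive and an active histone mark. RING1B replicate 1 and H3K27me3 replicate 1 came from line 1 at passage 12. Line 2 gave H3K27me3 replicate 2 (passage 11), H3K27ac replicate 1 (passage 13), and RING1B replicate 2 and CBX8 replicate 1 (both passage 19). CBX8 and H3K27ac replicates 2 were both from line 3, passage 14. The 2 libraries of an antibody are thus different lines, and antibody, line and passage cannot be fully told apart.

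A neuron's transmitter is fixed by a small set of enzymes and carriers. Gad1 and Gad2 encode the glutamate decarboxylases that make GABA, and Slc32a1 encodes the carrier that loads GABA and glycine into vesicles. Slc17a6, Slc17a7 and Slc17a8 encode the vesicular glutamate transporters VGLUT2, VGLUT1 and VGLUT3. Olfactory sensory neurons release glutamate through VGLUT2, whereas GABA and dopamine are made by interneurons of the olfactory bulb that arise from other precursors. Th, Chat and Tph2 encode tyrosine hydroxylase, choline acetyltransferase and the neuronal tryptophan hydroxylase. Polycomb complexes keep developmental and lineage genes silent: PRC2 sets H3K27me3, CBX proteins can bind it, and RING1B is the ubiquitin ligase of PRC1.

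The 3 GABA genes and Slc17a6 carried RING1B, CBX8 and H3K27me3 in both replicates. Th, Chat and Slc17a7 carried H3K27me3 at their starts with no RING1B or CBX8 shared by both replicates there. Slc17a7 also carried H3K27ac of both replicates just upstream of its start. Slc17a8 carried H3K27ac at an inner start and no H3K27me3 shared by both replicates within 2 kb of a start. Tph2 had no promoter peak in any list. The value given per peak is the authors' fold of ChIP over control. It ranks peaks within a list, and RING1B and CBX8 (narrow peaks) and the 2 histone marks (broad peaks) are on different scales. The files hold no read counts, so depth is unknown, and 2 libraries per antibody allow no test over samples.

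The 250 bases before 6 of the 11 RefSeq starts of these genes (GRCm38.p6, the assembly behind mm10) show how different the underlying sequences are. They are printed 5′ to 3′ on the strand of the gene, ending at the last base before the start, with CpG dinucleotides in capitals, because CpG-rich DNA is a known substrate of mammalian Polycomb recruitment. Gad1 (chr2:70561879-70562128, plus strand) had the most CpGs of the 11. Slc32a1 (chr2:158610508-158610757, plus strand) had the highest folds. Slc17a6 start 2 (chr7:51624387-51624636, plus strand) and Slc17a8 start 2 (chr10:89599816-89600065, minus strand) had the fewest CpGs, the former beside RING1B and CBX8 and the latter under H3K27ac. Th (chr7:142899996-142900245, minus strand) and Tph2 (chr10:115185023-115185272, minus strand) had no PRC1 peak at the start.
Gad1: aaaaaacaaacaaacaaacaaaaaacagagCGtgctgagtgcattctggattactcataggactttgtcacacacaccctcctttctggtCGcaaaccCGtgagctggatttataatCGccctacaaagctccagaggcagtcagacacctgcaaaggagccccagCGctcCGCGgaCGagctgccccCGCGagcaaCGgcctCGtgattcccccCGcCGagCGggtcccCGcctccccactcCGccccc
Slc32a1: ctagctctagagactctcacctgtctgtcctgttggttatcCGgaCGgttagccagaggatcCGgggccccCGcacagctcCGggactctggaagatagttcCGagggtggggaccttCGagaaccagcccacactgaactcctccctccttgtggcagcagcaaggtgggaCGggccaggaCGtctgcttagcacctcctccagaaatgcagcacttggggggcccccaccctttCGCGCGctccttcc
Slc17a6 start 2: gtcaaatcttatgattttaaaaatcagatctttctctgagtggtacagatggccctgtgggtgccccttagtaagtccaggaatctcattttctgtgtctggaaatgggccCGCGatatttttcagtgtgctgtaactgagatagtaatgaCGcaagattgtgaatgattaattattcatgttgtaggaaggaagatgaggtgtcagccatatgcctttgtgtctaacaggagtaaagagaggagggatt
Slc17a8 start 2: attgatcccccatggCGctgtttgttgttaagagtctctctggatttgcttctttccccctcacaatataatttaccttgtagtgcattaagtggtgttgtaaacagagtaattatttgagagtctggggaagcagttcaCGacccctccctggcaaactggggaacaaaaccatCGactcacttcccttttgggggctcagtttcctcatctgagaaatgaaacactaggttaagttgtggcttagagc
Th: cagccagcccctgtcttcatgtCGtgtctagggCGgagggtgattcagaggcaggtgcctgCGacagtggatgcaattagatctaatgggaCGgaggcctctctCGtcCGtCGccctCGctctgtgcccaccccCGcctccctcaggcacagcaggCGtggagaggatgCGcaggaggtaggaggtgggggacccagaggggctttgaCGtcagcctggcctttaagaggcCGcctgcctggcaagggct
Tph2: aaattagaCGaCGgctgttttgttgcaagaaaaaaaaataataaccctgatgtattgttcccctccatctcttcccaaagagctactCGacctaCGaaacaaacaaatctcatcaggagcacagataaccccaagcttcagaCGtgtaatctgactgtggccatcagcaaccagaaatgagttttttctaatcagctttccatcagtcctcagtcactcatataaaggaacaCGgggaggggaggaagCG

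The lists differed in length, which sets how many peaks could be found. They held 7578 and 32918 peaks for RING1B (replicates 1 and 2), 9926 and 77417 for CBX8, 68898 and 101129 for H3K27me3, and 123155 and 112175 for H3K27ac. The labelled cell type was compared with markers through H3K27ac promoter peaks of both replicates. By assigned rows these were listed for 5 of 8 basal cell markers (Krt5, Krt14, Trp63, Sox2 and Hes1), for 2 of 6 sensory neuron markers (Omp and Adcy3), for 0 of 4 sustentacular and gland cell markers, for 2 of 3 mesenchymal markers (Pdgfra and Col1a1), for 0 of 2 blood markers and for 0 of 3 glial markers, against 59.5% of all genes. By position, over markers with a RefSeq start in the table used, the counts were 3 of 5 basal, 1 of 4 neuronal, 0 of 2 sustentacular and gland, 0 of 2 mesenchymal, 1 of 2 blood (Cd68) and 0 of 2 glial. The share of all genes by position was 60.2%. The basal markers as a list thus lay near the share of all genes. Kit, the receptor used to isolate the cells, was not among those with H3K27ac in both replicates. Its promoter folds were 10.4 and 5.12 for RING1B and 4.70 and 4.05 for H3K27me3. CBX8 and H3K27ac were listed there in replicate 2 alone, at 9.56 and 2.45. A ChIP-seq peak comes from a population, so a mark on a minority of cells cannot be told apart from a weaker mark on all of them.

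By the authors' assignment of peaks to genes, RING1B and CBX8 each had a promoter peak in both replicates at 2 of the 9 genes, Gad1 and Gad2. The share of all 19208 protein-coding genes named in the lists was 14% for RING1B, 6.62% for CBX8 and 4.46% for both together. H3K27me3 was called at 6 of the 9 (Gad1, Gad2, Slc17a6, Slc17a7, Th and Chat), against 21.6% of all genes. H3K27ac was called at 2 of the 9 (Slc17a7 and Slc17a8), against 59.5% of all genes. The 9 genes thus lay above the share of all genes for H3K27me3 and below it for H3K27ac. These shares were not tested, because the 9 were chosen as a group of known neuronal genes.

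Which gene a peak is assigned to and which starts are used both bear on these counts. With any peak within 2 kb of the start of a transcript named in the lists, whatever gene the authors assigned, RING1B and CBX8 were both called at 3 of the 9, Slc32a1 joining Gad1 and Gad2. A further rule, added after the peaks had been seen, counted any peak within 2 kb of any RefSeq start of the gene. By this rule both were called at 4 of the 9, now with Slc17a6, whose PRC1 peaks carry its own name and lie near its second RefSeq start. Among 17492 genes with a RefSeq start, 12.8% were called for RING1B, 5.29% for CBX8 and 3.59% for both. H3K27me3 was called at 7 of the 9, now with Slc32a1, against 19.7% of all genes. H3K27ac was called at the same 2 of the 9, against 60.2%. Of the 4 genes with both PRC1 subunits by this rule, 3 belong to the GABA pathway. None is Th, Chat or Tph2, but with a share of 3.59% of all genes this marks no contrast.

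**Figure D1:**
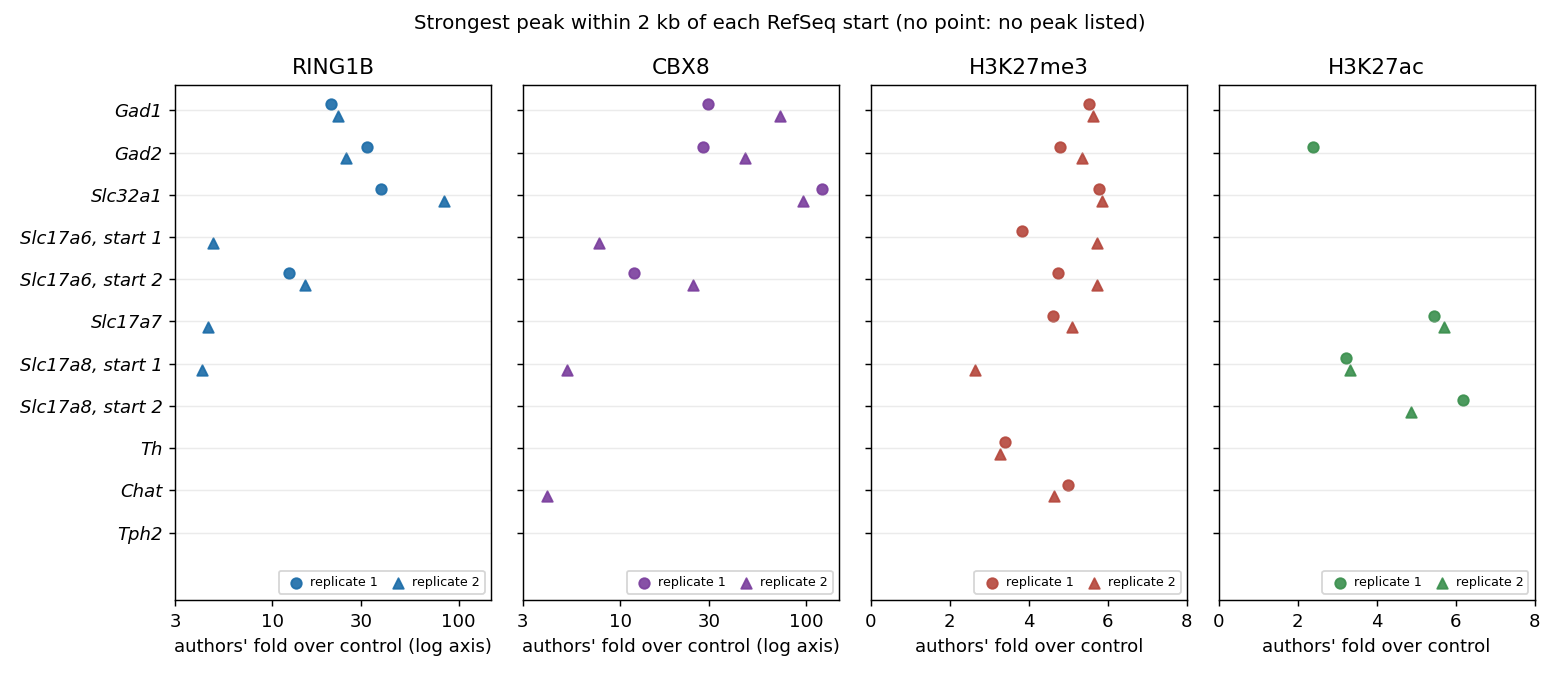
Authors' fold of the strongest peak within 2 kb of each RefSeq start (x axis, fold over control; log axis for RING1B and CBX8), by gene and start (rows), with circles for replicate 1 and triangles for replicate 2. Gad1, Gad2 and Slc32a1 sit at 20.7 or more for RING1B and at 27.9 or more for CBX8 in both replicates, and Tph2 has no point.

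The plot of folds by start shows 3 kinds of gene. Some have points of both replicates in the RING1B, CBX8 and H3K27me3 panels. Others have points of both replicates for H3K27me3 (Th and Chat), H3K27ac (Slc17a8) or both marks (Slc17a7), but not for RING1B or CBX8. Tph2 has none. Single triangles for RING1B or CBX8 at Slc17a7, Slc17a8 and Chat are peaks of replicate 2, the longer list of either antibody. They ranged from 4.05 to 5.15, below the lowest fold of both replicates at the GABA genes.

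Gad1 encodes GAD67, the decarboxylase that makes most of the GABA in neurons. The gene lies on the plus strand at chr2:70561303-70602014, with its RefSeq start at 70562129. Its strongest RING1B peak had folds of 20.7 and 22.4 in replicates 1 and 2, and its strongest CBX8 peak 29.7 and 71.7. These peaks were 2.00 to 2.39 kb wide and covered the start in all 4 libraries. Among genes with a RING1B peak near a start, Gad1 ranked 127 of 2360 and 169 of 7966. For CBX8 it ranked 83 of 1223 and 24 of 4224. A further RING1B peak of replicate 1 lay 5.40 to 6.82 kb past the start, with a fold of 12.8, where replicate 2 listed peaks of 6.31 and 4.10. The H3K27me3 peak over the Gad1 start was 11.9 and 16.0 kb wide, with folds of 5.53 and 5.61. Neither H3K27ac list had a peak within 2 kb of the start. The nearest H3K27ac of both replicates assigned to Gad1 lay 22.9 kb before it, with folds of 3.48 and 4.34.

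Gad2 encodes GAD65, the decarboxylase tied to vesicle membranes. It lies on the plus strand at chr2:22621015-22693877, with its RefSeq start at 22622327. Promoter folds of RING1B were 32.2 and 24.8, and those of CBX8 27.9 and 46.7. H3K27me3 reached 4.79 and 5.35, over 8.64 and 7.65 kb. Replicate numbers stand for different lines in RING1B and CBX8, so the order of replicates cannot be compared between these antibodies. H3K27ac replicate 1 listed a peak of 0.566 kb with a fold of 2.39, which began 929 bp past the start, inside the H3K27me3 peak. H3K27ac replicate 2 had none there.

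The body of Gad2 differed from its promoter. Inside the gene, 15 H3K27ac peaks (10 of replicate 1 and 5 of replicate 2) were assigned by the authors to Mir3967, a microRNA gene. The strongest, at 29.6 to 31.4 kb past the Gad2 start, had folds of 16.2 and 11.2. It ranked 1184 of 123155 in replicate 1 and 5608 of 112175 in replicate 2. Another at 48.0 to 50.7 kb in replicate 1 had folds of 10.7 and 9.22. H3K27ac shared by both replicates covered 4.89 kb of the gene with its 5 kb flanks, and 0% of that lay under shared H3K27me3. Gad2 therefore had RING1B, CBX8 and H3K27me3 around its start and separate stretches of shared H3K27ac that began 26.5 kb into the gene.

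Slc32a1, the vesicular GABA and glycine transporter VGAT, had the highest RING1B and CBX8 folds of the 9. It spans chr2:158607260-158615747 on the plus strand, with its RefSeq start at 158610758. Its strongest RING1B peak had folds of 38.1 and 83.1, ranks 63 of 7578 and 3 of 32918. Its strongest CBX8 peak had folds of 120.6 and 96.0, ranks 1 of 9926 and 3 of 77417. The RING1B peaks were 5.54 and 6.75 kb wide, longer than those of Gad1 or Gad2. H3K27me3 had folds of 5.77 and 5.85 in peaks of 16.2 and 28.9 kb that contained the whole gene. No H3K27ac peak was listed within 5 kb of the gene in either replicate.

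Most of these Slc32a1 peaks carry another gene's name in the lists. Of the peaks at the locus, 13 were assigned to Gm14204 and 2 to Actr5. Gm14204 is a long noncoding RNA gene on the minus strand, whose own start lies just before the Slc32a1 start. The RING1B peak of replicate 2, the CBX8 peak of replicate 2 and both H3K27me3 peaks over the start were among the 13. By the assignment rule Slc32a1 therefore had a promoter row in 2 libraries alone, RING1B replicate 1 and CBX8 replicate 1. By position, 6 libraries had a peak at its start.

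The position of the summit, the highest point of a narrow peak, varied little between libraries at Gad2 and Slc32a1. It varied more at Gad1 and Slc17a6. At Gad2 the summits of the strongest RING1B and CBX8 peaks lay 1.982, 1.975, 1.977 and 1.973 kb past the start, a range of 9 bp. At Slc32a1 they lay 1.929, 1.932, 1.913 and 1.942 kb past the start, a range of 29 bp. At Gad1 they lay at 0.875, 0.610, 0.851 and 0.854 kb, a range of 265 bp that RING1B replicate 2 set. At Slc17a6 they lay at 4.967, 4.940, 5.094 and 4.945 kb, a range of 154 bp that CBX8 replicate 1 set. All of these summits lay downstream of the start, inside the gene.

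**Figure D2:**
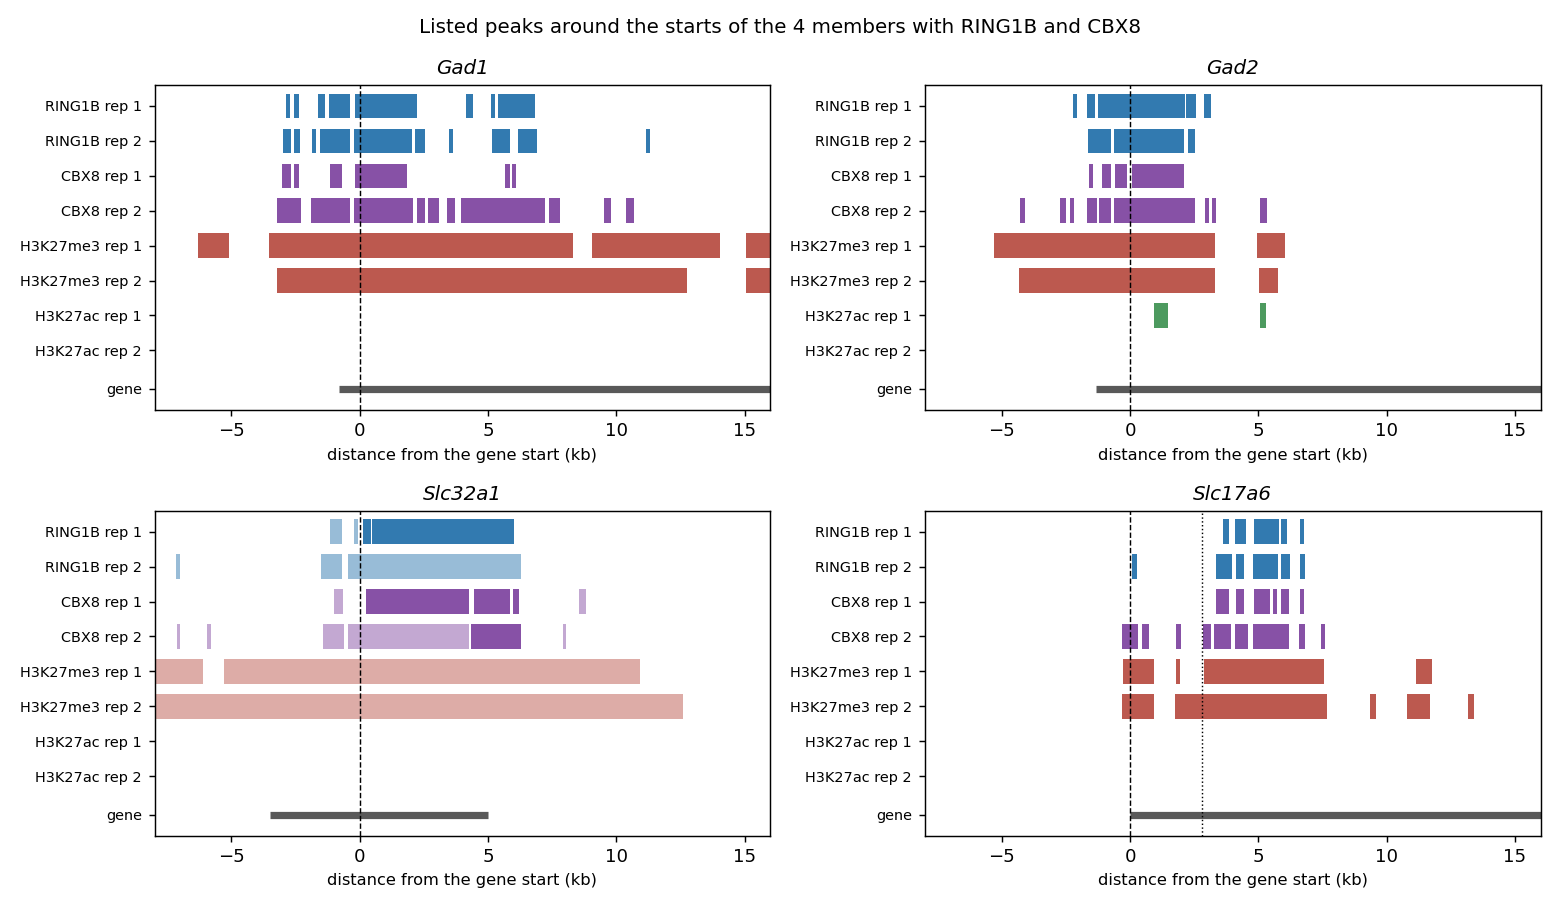
Listed peaks (bars) of the 8 libraries (rows) against distance from the gene start in kb, in the direction of transcription, for Gad1, Gad2, Slc32a1 and Slc17a6; pale bars are peaks that the authors assigned to another gene, the dashed line is start 1, the dotted line start 2, and the grey bar the gene. RING1B and CBX8 bars lie within the H3K27me3 bars, and at Slc17a6 most of them lie 3 to 7 kb past the first start.

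In the maps of these 4 genes the RING1B and CBX8 peaks form several short blocks inside longer H3K27me3 blocks, of which Slc17a6 has separate ones over its first start and over exons 2 and 3. All bases under RING1B of both replicates (100%) lay under H3K27me3 of both replicates at each of the 4. Of the shared RING1B bases, 61.3% lay under shared CBX8 at Gad1, 79.0% at Gad2, 88.3% at Slc32a1 and 87.6% at Slc17a6. The shared RING1B length was 4.90 kb at Gad1, 3.82 kb at Gad2, 6.51 kb at Slc32a1 and 1.96 kb at Slc17a6. Slc17a6 thus had the shortest RING1B stretch of the 4, and Slc32a1 the longest.

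Slc17a6 encodes VGLUT2, the vesicular glutamate transporter of olfactory sensory neurons. The gene lies on the plus strand at chr7:51621830-51671126, and RefSeq gives starts at 51621830 and, 2.81 kb further in, at 51624637. Near the first start, RING1B (4.81) and CBX8 (7.72) were listed in replicate 2 alone. Within 2 kb of the second start, RING1B had folds of 12.3 and 15.0, CBX8 of 11.9 and 24.6, and H3K27me3 of 4.74 and 5.73. The strongest peaks of the locus lay over exon 3 of the 12-exon transcript, with folds of 13.8 and 15.0 for RING1B and 12.4 and 33.5 for CBX8. H3K27me3 formed separate peaks, a short one over the first start (1.18 and 1.25 kb, folds of 3.82 and 4.19) and a longer one over exons 2 and 3 (4.70 and 5.92 kb). The interval between them held 1 small peak in replicate 1. No H3K27ac peak was listed within the gene or 5 kb of it. The nearest assigned H3K27ac lay 102 kb past the start in both replicates, with folds of 5.37 and 5.67.

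Slc17a7 encodes VGLUT1, the main glutamate transporter of cortical projection neurons. It spans chr7:45163921-45176139 on the plus strand. H3K27me3 covered its start in both replicates, with folds of 4.62 and 5.10 over 7.42 and 7.97 kb. H3K27ac was listed just upstream, with folds of 5.46 and 5.71 in peaks that ended 1345 and 1580 bp before the start. No base of the shared H3K27ac lay under H3K27me3 of both replicates, although a further H3K27me3 peak of replicate 1 (1.22 kb, fold 3.06) overlapped it. These H3K27ac peaks ranked 8778 of 10965 and 8707 of 11195 among genes with a peak near a start, in the lower part of either list. RING1B was listed in replicate 2 alone, at 4.51 near the start, and CBX8 was not listed there. From 10.3 and 10.4 kb past the start, inside the gene, to beyond its end ran another H3K27me3 domain, of 15.9 and 17.3 kb with folds of 4.99 and 4.92, assigned to Gfy, a gene of olfactory sensory neurons.

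Slc17a8 encodes VGLUT3, which is found in scattered neurons that also use other transmitters and in inner hair cells. The gene lies on the minus strand at chr10:89574020-89621249, and RefSeq gives an outer start at 89621249 and an inner start 21.4 kb downstream at 89599815. At the inner start H3K27ac had folds of 6.19 and 4.87 in peaks of 1.80 and 2.34 kb, with no RING1B, CBX8 or H3K27me3 within 2 kb. Near the outer start H3K27ac had folds of 3.22 and 3.33 in a peak about 1.57 kb past it, and replicate 1 alone listed a peak over the start itself, at 2.75. RING1B (4.17), CBX8 (5.15) and H3K27me3 (2.64) lay over the outer start in replicate 2 alone. The inner start was thus the place of the higher acetylation in both replicates. Even there, the folds were below the medians of all genes with an H3K27ac peak, 9.51 and 9.57.

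Th encodes tyrosine hydroxylase, the rate-limiting enzyme of catecholamine synthesis. It spans chr7:142892779-142899995 on the minus strand. An H3K27me3 peak covered its start in both replicates, with folds of 3.41 and 3.27 and widths of 9.52 and 31.3 kb. These folds were the lowest H3K27me3 promoter folds among the genes called in both replicates, and Th ranked 1778 of 4352 and 1870 of 4988. The peak of replicate 2 was wider although its fold was no higher. Neither RING1B, CBX8 nor H3K27ac was listed within 2 kb of the Th start in any library. The lists assigned 19 and 13 H3K27me3 peaks to Th in all, of which 1 in each replicate was a promoter peak.

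Chat shares its locus with Slc18a3, the vesicular acetylcholine transporter gene, which lies inside the first intron of Chat. Chat lies on the minus strand at chr14:32408203-32465909. A single H3K27me3 peak of 14.9 and 13.4 kb, with folds of 4.99 and 4.64, covered the Chat start and ran 12.9 and 11.5 kb into the gene. Chat ranked 248 of 4352 and 490 of 4988 among genes with an H3K27me3 peak near a start, well above Th. CBX8 replicate 2 listed a peak of 4.05 within 2 kb, assigned to Slc18a3. No RING1B or H3K27ac peak was listed near the start. Each replicate assigned 14 H3K27me3 peaks to Chat.

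Tph2 encodes the tryptophan hydroxylase of serotonin neurons in the brain. On the minus strand at chr10:115078641-115185022, no library had a peak within 2 kb of its start. Its widest H3K27me3 peak lay in intron 5, with folds of 3.30 and 2.91 over 4.83 and 6.37 kb. H3K27ac lay in intron 4, about 9 kb past the start, with folds of 4.32 and 3.78, and 10.7 kb before the start, with folds of 4.09 and 2.85. Tph2 was thus marked inside the gene and upstream of it, but not at its start. Another 2343 genes also had no promoter row in any of the 8 lists.

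The maps of whole genes also differ in how far H3K27me3 extends. It covered 100% of Slc32a1 in both replicates. Th was covered over 85.0 and 100% of its length, Slc17a7 over 73.9 and 73.5%, and Chat over 52.2 and 58.2%. Gad1 had 47.2 and 66.3% of its length covered. The other 4 genes were covered over short stretches: Slc17a6 over 13.0 and 17.4%, Gad2 over 7.82 and 7.34%, Tph2 over 7.62 and 13.5%, and Slc17a8 over 2.30 and 5.21%. Over the 19208 genes the median was 0%, and 40.7 and 39.0% of genes had any H3K27me3 peak. The extent of H3K27me3 did not follow PRC1: Gad2 had RING1B and CBX8 and little coverage, and Th had neither and was nearly or wholly covered. Coverage depends on gene length, and Gad2 is a longer gene than Th.

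**Figure D3:**
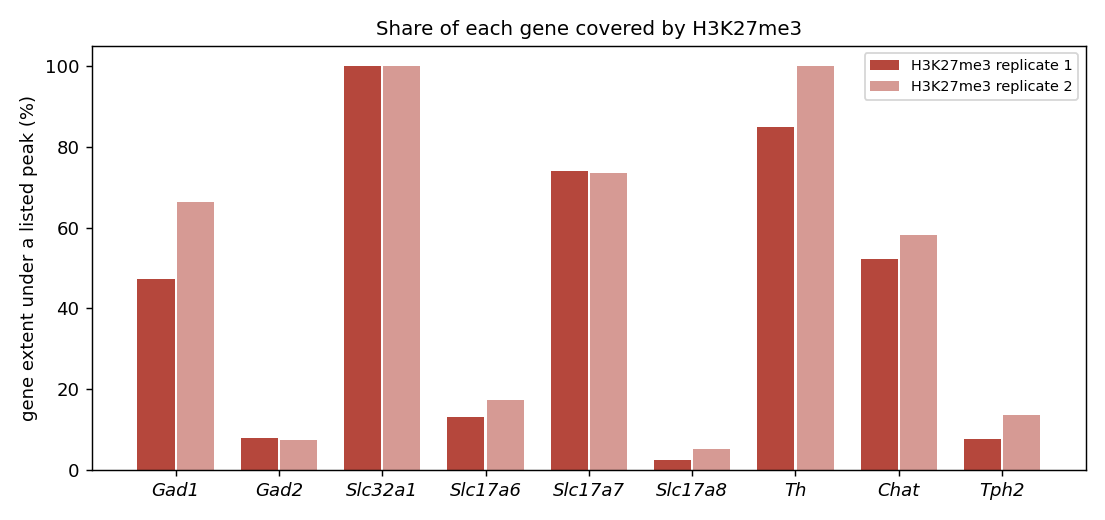
Share of each gene's RefSeq extent under a listed H3K27me3 peak (y axis, percent), with dark bars for replicate 1 and pale bars for replicate 2. Slc32a1 is covered over 100% in both replicates and Slc17a8 over 2.30 and 5.21%.

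CpG content before the starts did not divide the genes by their PRC1 peaks. In the 250 bases before the start Gad1 had 17 CpGs, 13 of them in the 125 bases nearest the start, as its printed sequence shows. Gad2 had 13 and Slc32a1 12. Th also had 13, without RING1B or CBX8. Slc17a6 had 7 before the first start and 3 before the second, the start nearer its PRC1 peaks. Slc17a7 had 9, Chat 8, Tph2 7, and Slc17a8 5 before the outer and 3 before the inner start. Over all 21263 RefSeq starts of protein-coding genes the median was 10. It was 16 over the 713 starts with RING1B and CBX8 in both replicates, 6 over the 2747 with H3K27me3 but without either in both replicates, and 2 over the 5460 with none of the 4 antibodies. Gad1 thus lay above the median of starts with RING1B and CBX8, and Gad2, Slc32a1 and both starts of Slc17a6 lay below it. RING1B and CBX8 summits lay downstream of these windows, in sequence not analysed here.

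**Figure D4:**
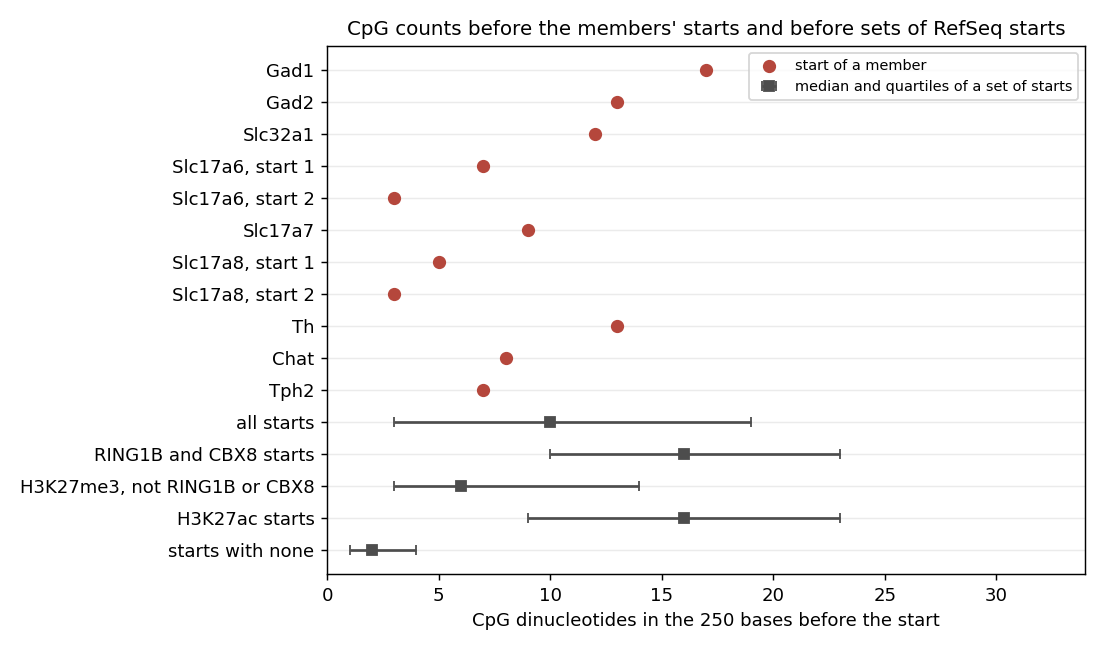
CpG dinucleotides in the 250 bases before each RefSeq start (x axis); red points are starts of the 9 genes and grey squares with bars are the median and quartiles of sets of RefSeq starts. Gad1 has 17, Gad2 and Th 13 each, and the start sets with RING1B and CBX8 and with H3K27ac both have a median of 16.

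A search of the same 250 bases on both strands looked for TGACGTCA, the cyclic AMP response element, for CAGCTG, an E-box, and for TATAAA, the core of a TATA box. TGACGTCA occurred before Th alone, 45 to 38 bases before the start, within the printed sequence, and before 1.92% of all starts. TATAAA occurred on the strand of the gene 30 to 25 bases before the Tph2 start. Before the Gad1 start it occurred on the opposite strand alone, at 141 to 136 bases, where the printed sequence reads TTTATA. Counting both strands, TATAAA occurred before 11.6% of all starts. CAGCTG occurred before Chat alone and before 12.1% of all starts. A match is only a match of letters.

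Other genes that make, carry or break down the same transmitters gave a background for the 9. Of 45 such genes, 24 had an H3K27me3 promoter row in both replicates, 17 an H3K27ac row, 10 a RING1B row, 7 a CBX8 row and 5 both RING1B and CBX8. Over all genes the shares were 21.6%, 59.5%, 14%, 6.62% and 4.46%. By position, over the 33 of the 45 with a start in the RefSeq table, the counts were 17, 12, 7, 6 and 4, against 19.7%, 60.2%, 12.8%, 5.29% and 3.59%. The counts by transmitter below are by assigned rows, followed by those by position. These lists were chosen with earlier results of the same data known, and their shares were not tested. Among GABA and glycine genes H3K27me3 was called at 7 of 9 and H3K27ac at 1 of 9 (by position 6 of 7 and 2 of 7). Slc6a5, the glycine carrier of nerve terminals, had RING1B at 19.3 and 40.3, CBX8 at 40.8 and 46.3, and H3K27me3 at 5.36 and 5.91. No other gene of the 45 had higher RING1B or CBX8 folds in either replicate, and Slc32a1 loads the same transmitter into vesicles. Slc6a9, the glial type of glycine carrier, had H3K27ac at 12.3 and 12.3 and no H3K27me3.

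Among glutamate genes H3K27me3 was called at 5 of 9 and H3K27ac at 4 of 9 (by position 2 of 6 and 2 of 6). The plasma membrane carriers Slc1a1, Slc1a2 and Slc1a3 had RING1B, CBX8 and H3K27me3 rows in both replicates. By position Slc1a2 had none of these calls and Slc1a3 had no H3K27me3 call. Of these, Slc1a3 had RING1B at 7.65 and 19.6 and CBX8 at 10.2 and 21.0. Slc38a2, a glutamine carrier of many cell types, had H3K27ac at 19.7 and 17.8 beside RING1B at 4.88 and 7.83.

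Among catecholamine genes H3K27me3 was called at 6 of 14 and H3K27ac at 8 of 14 (by position 3 of 9 and 5 of 9). The H3K27me3 calls included the vesicular carrier Slc18a2 (4.47 and 4.57), the dopamine carrier Slc6a3 (3.23 and 4.45) and Dbh, which makes noradrenaline (2.83 and 3.24). The H3K27ac calls included genes of the tetrahydrobiopterin cofactor that tyrosine hydroxylase needs, Gch1 (11.9 and 11.1) and Pts (14.1 and 12.4). Ddc, the decarboxylase of the dopamine and serotonin pathways, had both marks, H3K27me3 at 3.35 and 3.24 and H3K27ac at 4.92 and 4.21, but neither by position. The H3K27me3 folds of Th lay within the range of these partners.

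Of the acetylcholine genes, Slc5a7, the choline carrier, had H3K27me3 at 2.72 and 3.55, and Ache, the esterase, had H3K27me3 at 4.63 and 5.53 beside weak H3K27ac at 3.06 and 2.32. H3K27me3 was called at 2 of these 4 and H3K27ac at 1 of 4 (by position 3 of 4 and 1 of 4). Of the 3 serotonin and histamine genes, Tph1, the peripheral tryptophan hydroxylase, had H3K27me3 at 3.49 and 3.28, unlike Tph2. Slc6a4, the serotonin carrier, had all 4. Its folds were 4.72 and 10.2 (RING1B), 4.72 and 8.53 (CBX8), 3.80 and 3.21 (H3K27me3) and 3.02 and 3.28 (H3K27ac). The other SLC17 carriers, which are not vesicular glutamate transporters, had H3K27me3 at 2 of 6 (by position 1 of 4). H3K27ac was called at 2 of 6 (by position 1 of 4). RING1B and CBX8 were each called at 0 of 6 (by position 0 of 4). The shares of all genes were 14% and 6.62% (by position 12.8% and 5.29%). With so few genes, 0 calls lie near those shares and mark no contrast with the vesicular transporters. Slc17a9 had a CBX8 row in replicate 2 alone, at 5.52.

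Each pattern of promoter rows over the 8 libraries was also looked up in the other genes of the 19208 named in the lists. Gad1 shared its pattern (RING1B, CBX8 and H3K27me3 in both replicates, no H3K27ac) with 313 genes, and the 3 with the smallest summed difference in log2 fold were Foxd3 (1.26), Olig3 (1.30) and Gsc (1.34), all transcription factor genes of development. Gad2, with H3K27ac in replicate 1 besides, shared its pattern with 40 genes, nearest Esrrb (1.53), with Gdf6 and Spata18 next. Th and Chat had the same pattern, H3K27me3 in both replicates alone, which each shared with 797 genes. Nearest Th were Prg3, Igfn1 and Sult6b2, and nearest Chat were Gfy (0.08), Prmt8 and Nrsn2. Only the folds of 2 libraries enter these differences, so small values are easily reached among 797 genes. Slc17a6 shared its pattern with 189 genes (nearest Chst9, Fmn2 and Rarres1). Slc17a7 shared its pattern with 226 (nearest Atp8b2, Grwd1 and Arhgap22) and Slc17a8 with 130 (nearest Dlec1, Fuom and Sh3tc1). The pattern of Slc32a1 by assigned rows had 1 other gene, Emx2, because most peaks at its start carry the name of Gm14204.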

How the data were processed

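The 8 lists hold peaks of mm10. The tools named per the submitters' processing notes are MACS2 2.1.1.20160309, BWA 0.7.12, Trim Galore 0.4.3 and bcl2fastq 2.17. Which options and which control stood behind a list was not given in the sources used here. The series also holds 5 inputs, whose labelled lines and passages match those of the ChIP libraries. By these labels RING1B replicate 2 and CBX8 replicate 1 match the same input, as do CBX8 and H3K27ac replicates 2. The lists of CBX8 replicate 2 and both H3K27ac libraries name peaks as combined, so pooling cannot be told apart from single libraries. The authors deposited for each peak a fold (a ratio to control), −log10 q-values and p-values, and a score. The fold describes peaks, the −log10 q served a stricter threshold, and the score and p were not used. Narrow lists (RING1B, CBX8) hold q up to 0.01 and broad lists up to 0.1. Counts of reads are not in these files, so no interval was computed. An unlisted peak is not a fold of 0.

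The members, gene lists and rules were chosen with earlier results of these data known. All 9 members are named. Of 45 other transmitter genes, those with RING1B and CBX8 promoter rows in both replicates and pathway partners are named; some are not reported here, while counts include them. For likeness, up to 3 genes with the same 8 calls and the smallest summed absolute log2 fold difference are named. None is named for Tph2, which had no promoter row. A gene was called when both replicates listed a peak within 2 kb of a start, by the authors' assignment or, added after seeing the data, by position around RefSeq starts of GRCm38.p6. Promoter sequences came from RefSeq, and all 9 members matched. Overlap needed 1 bp. Counting was tested on simulated lists. Python 3.11.15, numpy 2.4.6 and pandas 2.3.3 were used.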

Additional observations from a re-analysis of the deposited data

How the results depend on the processing

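Counts of the 9 genes called in both replicates depended on how peaks were tied to genes. The main counts were 2 for RING1B, 2 for CBX8, 2 for both together, 6 for H3K27me3 and 2 for H3K27ac. With starts of named transcripts and any assigned gene, RING1B, CBX8 and both together each gave 3. With RefSeq starts and any assigned gene, an alternative chosen after seeing the data, RING1B, CBX8 and both together each gave 4, and again 4 at a −log10 q of 5 or more. CBX8 gave 4 with a distance of 5 kb and 5 with any row that names the gene. H3K27me3 gave 3 (Gad1, Gad2 and Chat) by assigned rows at a −log10 q of 5 or more. With RefSeq starts and any assigned gene it gave 7, and 5 at that threshold (Gad1, Gad2, Slc32a1, Slc17a6 and Chat). H3K27ac gave 1 with a distance of 1 kb and 6 with any row. When a single replicate decided, the counts were 3 to 5 for RING1B, 3 to 4 for CBX8, 3 to 4 for both together, 6 to 7 for H3K27me3 and 2 to 3 for H3K27ac. Leaving out replicate 1 of RING1B, the shorter list, moved its count by more than 1.5 times, to 5 genes; leaving out replicate 1 of CBX8 gave 4. The causes of these moves were not tested. Among single-gene folds, H3K27me3 at Th moved to 3.50 with any row, and the mean CBX8 fold at Gad1, 50.7, was 29.7 or 71.7 by the replicate kept. No paired analysis was possible because the counts come from no test between groups, although some libraries of different antibodies share a line and passage. Depth is unknown, so weak peaks of a single list cannot be weighed by counts.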
